A study of Homo sapiens with 12 samples.

Results

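Disome footprints at 1 µM girolline were compared with those of DMSO, using 3 of the 12 libraries of the series: 1 library at 1 µM and 2 DMSO libraries, DMSO 1 and DMSO 2. They were chosen by their treatment and library kind as labelled. All came from wild-type HEK293T flp-In cells, an established human embryonic kidney line that carries a recombination site for adding transgenes. Cells were exposed to girolline, a small molecule first isolated from a marine sponge, or to DMSO, its solvent, for 2 h. Monosome and RNA-seq libraries at 1 µM and with DMSO, and the disome library at 10 µM, are given beside them as other readouts. The labels do not say whether the libraries came from separate cultures, and girolline had 1 library per dose.

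A disome footprint is the mRNA fragment protected from nuclease by a pair of ribosomes that stand directly behind one another. Such pairs form when a leading ribosome pauses and the next one runs into it, and cells sense lasting collisions through dedicated ubiquitin ligases and stress kinases. The title of the series places girolline's action at eIF5A, which binds beside the exit site of the ribosome and helps peptide bonds form at slow motifs such as runs of proline, and also helps nascent chains to be released at stop codons. The question of the comparison is on which coding regions ribosome pairs become more or less frequent when the lower dose is present.

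Counts were deposited per transcript, and 39156 distinct coding rows had disome counts once rows with no coding length had been dropped and rows with identical counts merged. Total disome counts were 4704075 at 1 µM, against 3091715 and 5151900 in DMSO 1 and DMSO 2. Disome and RNA-seq tables use one set of transcript IDs and monosome tables another. The tables were joined through the order of coding lengths, which gave 31654 of the merged rows an Ensembl partner. Over the joined rows, mRNA and monosome counts per codon with DMSO had a Spearman's rho of 0.885, against -0.014 when the partners were shifted by 20 rows. Isoforms of a gene stand close together and share reads. To limit repeated counting of a gene, the most abundant joined row was kept wherever kept rows lay at least 10 rows apart, and these 5604 rows are called loci. Abundance here was the mean over all disome libraries, those at 1 µM and 10 µM included. The choice can therefore favour rows that are high with girolline. Loci are not annotated genes. Some genes may hold more than 1 locus, and a gene close to a more abundant row may hold none. For example, rows of 476 codons with equal monosome and mRNA changes were kept as separate loci. The tables pair no ID with a gene name, so loci are described by coding length, no roles are given, and markers of the cell line were not checked. Counts carry no position within a coding region.

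At 1 µM, disome footprints rose on more coding regions than they fell on, and rises and falls differed in coding length. Of 34606 rows that passed a filter on low counts, 1866 (5.39%) rose and 582 (1.68%) fell by edgeR's quasi-likelihood test at an FDR of 0.05. Of 5252 loci tested, 323 (6.15%) rose and 111 (2.11%) fell; the other 352 loci had too few counts. Loci that rose had a median log2 fold change of 0.97, a 1.95-fold difference, and a median coding length of 238 codons. Loci that fell had a median log2 fold change of -0.82, which is 0.565 of the DMSO level, and a median of 976 codons. All tested loci had a median of -0.02 and 463 codons. Libraries were scaled to a common centre, so a change that every transcript shared would not show in these fold changes. The spread behind the test comes from the DMSO pair alone, with 1 residual degree of freedom, so the single 1 µM library is assumed to vary like that pair. With 1 library per girolline dose, the filter could pass a locus on a girolline library alone, which can let in rises. With no filter, 318 of 5604 loci rose and 106 fell. In the lowest of 5 classes by DMSO level 44 loci rose and 1 fell, against 110 and 60 in the highest. With a minimum set on the DMSO libraries alone, 224 of 3095 loci rose and 98 fell. That minimum does not undo the choice of loci, which used the girolline libraries too.

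The depth of the change can also be read library by library. Over the 3125 loci with a mean of at least 10 CPM over the 1 µM and DMSO libraries, where CPM is the count as a share of the scaled library total,, 106 were over 2-fold higher and 15 over 2-fold lower at 1 µM than in DMSO 1. Against DMSO 2, 89 were over 2-fold higher and 20 over 2-fold lower. Between the DMSO libraries 7 and 5 loci differed by as much. The quartiles of the log2 ratios lay at -0.30 and 0.30 for 1 µM over DMSO 1, at -0.28 and 0.33 for 1 µM over DMSO 2, and at -0.20 and 0.18 for DMSO 2 over DMSO 1. In a joint fit with the RNA-seq libraries, which leaves a spread to test with when a DMSO library is dropped, 263 loci rose and 115 fell. In that fit 196 rose and 89 fell without DMSO 1, and 156 rose and 42 fell without DMSO 2. DESeq2 was stricter, with 55 rises and 5 falls.

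Among the loci of at least 10 CPM, the largest rise was on transcript uc002fgy.3, with Ensembl partner ENST00000570259.1, a coding region of 77 codons. It had 273 disome counts at 1 µM, against 37 and 59 in DMSO 1 and DMSO 2, or 68.5 CPM against 13.8 and 12.7 CPM. The DMSO libraries were close to each other, and the choice of loci required a 1 µM value above both. The log2 fold change was 2.38 (SE 0.23; edgeR adjusted p = 6.11e-21). Its monosome footprints were 42.4 CPM at 1 µM, against 41.2 and 40.0 CPM with DMSO, and its mRNA was 30.4 CPM, against 31.2 and 29.8 CPM. Its mRNA thus lay between the DMSO libraries and its monosome level just above both.

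The next was uc001aol.3, with Ensembl partner ENST00000054666.11, of 101 codons. It had 95 disome counts at 1 µM, against 16 and 21 with DMSO, or 23.8 CPM against 5.95 and 4.54 CPM. It reached 10 CPM on average only through the 1 µM library. Its log2 fold change was 2.22 (SE 0.31; edgeR adjusted p = 6.19e-10). Monosome footprints were 16.4 CPM at 1 µM, against 17.7 and 17.9 CPM, so they lay slightly below DMSO where disome footprints lay far above. Both transcripts had fewer disome than monosome CPM with DMSO, at ratios of 0.334 and 0.313.

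A locus of 153 codons was one of the more abundant risers. It had 806 disome counts at 1 µM, against 161 and 250 with DMSO, or 202 CPM against 59.9 and 54.0 CPM. The log2 fold change was 1.83 (SE 0.17). Its monosome footprints rose as well, though by less, to 635 CPM at 1 µM against 533 and 540 CPM, a log2 fold change of 0.24 with edgeR adjusted p = 0.00255. A locus of 250 codons was higher still in counts, with 1714 at 1 µM, against 377 and 659 with DMSO, or 430 CPM against 140 and 142 CPM. Its log2 fold change of 1.60 (SE 0.14) gave the smallest adjusted p among the 15 largest rises, 5.57e-25 by edgeR. Its mRNA did not follow, at 704 CPM at 1 µM, against 794 and 861 CPM with DMSO.

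Other risers had the same order of libraries, with the 1 µM value above both DMSO values, which the choice of loci required. A locus of 84 codons had 61.0 disome CPM at 1 µM, against 17.5 and 15.6 CPM with DMSO. A locus of 70 codons had 43.4 CPM at 1 µM, against 13.8 and 12.1 CPM. A locus of 133 codons had 29.6 CPM at 1 µM, against 10.4 and 9.94 CPM. At 10 µM, measured against the same DMSO libraries, their log2 fold changes were 3.16, 3.07 and 3.58, beside 1.90, 1.76 and 1.54 at 1 µM.

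The 15 loci of at least 10 CPM with the largest rises had 70 to 253 codons, with a median of 133, and log2 fold changes of 1.5 to 2.38 at 1 µM and 1.94 to 3.96 at 10 µM. Of these 15, 2 had a DMSO mean under 10 CPM and so passed the minimum only where they were high. With the minimum set on the DMSO libraries alone, a choice made after the data had been seen, 13 of the 15 were the same and the median length was 153 codons. Each of the 15 kept its call when either DMSO library was left out of the joint fit. Their monosome log2 fold changes ran from -0.14 to 0.43, and 5 of the 15 rose in monosomes by edgeR, where 1.81% of all loci did. Their mRNA log2 fold changes ran from -0.23 to 0.08, with no edgeR adjusted p below 0.999987. That test called 0 of all 56229 mRNA rows in either direction at 1 µM. The lack of mRNA calls therefore does not set these loci apart. All 15 rose relative to monosomes in a joint fit, by 1.18 to 2.36 on the log2 scale, where 4.21% of all loci did. The disome counts they were picked on enter that fit too, so it is no separate evidence. Of 118 other tested rows within 9 coding rows of these loci, 19 also rose and 1 fell, and these may share reads with them. Over all rows tested, 5.39% rose and 1.68% fell. The neighbours were uneven, with 4 of 10 higher beside the locus of 153 codons and 0 of 17 beside one of 242 codons.

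**Figure D1:**
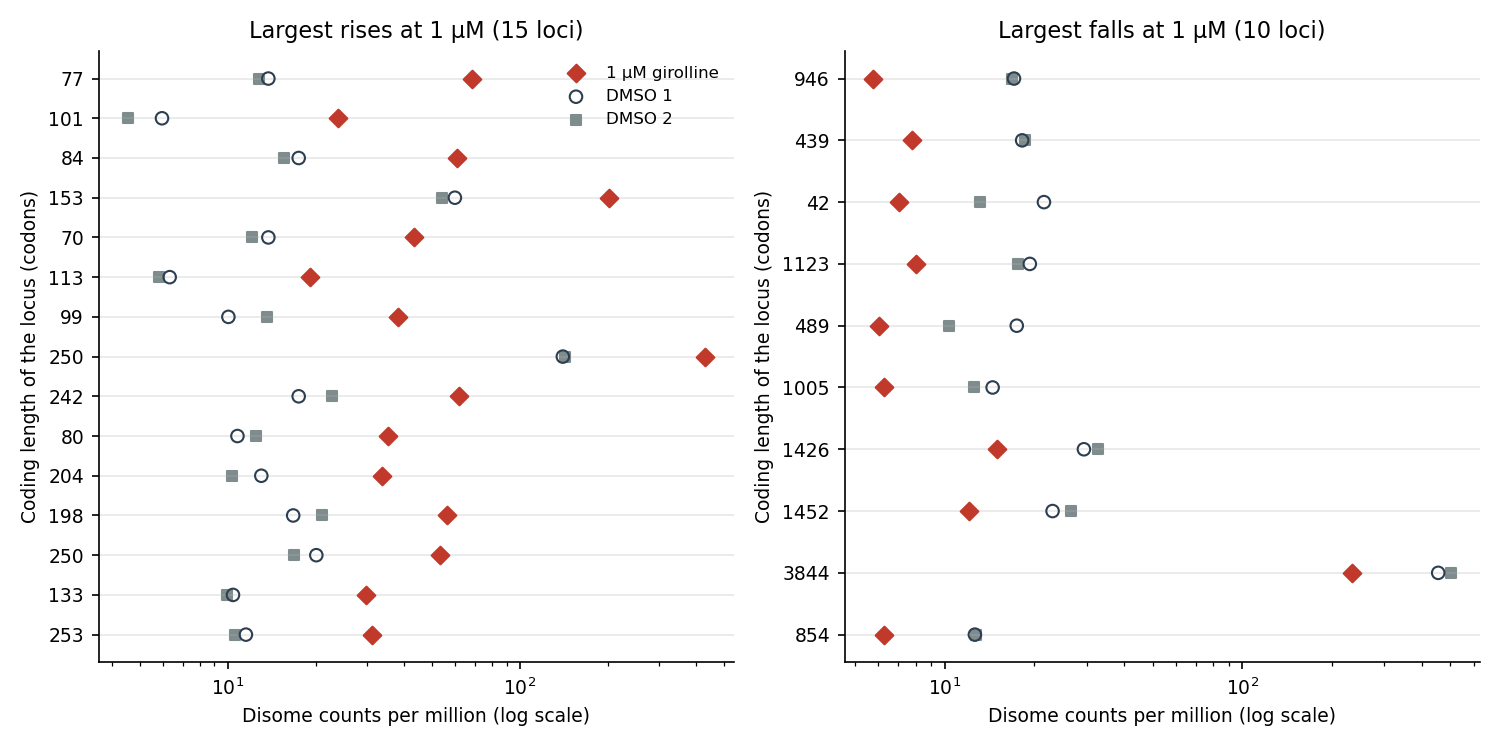
Disome CPM (horizontal, log scale) of the 15 loci with the largest rises (left) and the 10 with the largest falls (right) at 1 µM among loci of at least 10 CPM, in order of change from the top and labelled by coding length in codons. Diamonds are the 1 µM library, open circles DMSO 1 and squares DMSO 2; in each row the 1 µM value lies outside the DMSO pair, which the choice of loci required.

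Among the same loci the falls were smaller. The largest was on uc060tol.1, with Ensembl partner ENST00000252444.9, of 946 codons. It had 23 disome counts at 1 µM, against 46 and 78 with DMSO, or 5.77 CPM against 17.1 and 16.8 CPM. The log2 fold change was -1.55 (SE 0.34; edgeR adjusted p = 3.33e-04). Its monosome footprints were 6.44 CPM at 1 µM, against 9.15 and 9.83 CPM with DMSO, with a log2 fold change of -0.56 that missed the threshold at adjusted p = 0.0600 by edgeR. Transcript uc059vdd.1, with Ensembl partner ENST00000568917.1, of 439 codons, had 31 disome counts at 1 µM, against 49 and 86 with DMSO, or 7.78 CPM against 18.2 and 18.6 CPM. Its log2 fold change was -1.24 (SE 0.32; edgeR adjusted p = 0.0033), and it missed the threshold without DMSO 2 at adjusted p = 0.0501.

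Among the 10 largest falls at 10 CPM or more the coding length had a median of 975.5 codons and ran from 42 to 3844. Log2 fold changes ran from -1.55 to -1.02 at 1 µM and from -1.99 to -0.56 at 10 µM. Since a low 1 µM value lowers the mean, the minimum leaves out falls as it lets in rises: set on the DMSO libraries alone it gave a list that shared 5 of the 10, with a median of 854 codons. Of the 10, 6 kept their call without DMSO 1 and 5 without DMSO 2. Only 1 of the 10 fell relative to monosomes by the test of that difference, a locus of 42 codons with 7.03 disome CPM at 1 µM, against 21.6 and 13.2 CPM with DMSO. Without DMSO 1 this locus lost its disome call, at edgeR adjusted p = 0.206. The locus of 3844 codons had by far the most counts of these, 932 at 1 µM, against 1223 and 2323 with DMSO, or 234 CPM against 455 and 502 CPM. Its log2 fold change was -1.03 (SE 0.16; edgeR adjusted p = 2.25e-08). Its monosome level was only 1.24 CPM at 1 µM, against 2.13 and 1.72 CPM. Whether the disome and monosome tables count the same reads at this locus was not tested.

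The 10 loci with the most disome footprints with DMSO had 336 to 859 codons, and 2 of the 10 passed the test, both lower, where 2.11% of all loci fell. Calls were most frequent among abundant loci: of the 1050 in the highest of 5 classes by DMSO level, 110 rose and 60 fell. A locus of 733 codons had 1747 CPM at 1 µM, against 2603 and 2499 CPM with DMSO, and fell by 0.55 on the log2 scale (SE 0.11, edgeR adjusted p = 7.65e-05). A locus of 725 codons had 1635 CPM at 1 µM, against 2439 and 2326 CPM, and fell by 0.54 (SE 0.11, edgeR adjusted p = 1.19e-04). Neither of these falls passed with DESeq2, at adjusted p = 0.0957 and 0.100. Their monosome footprints fell less, with log2 fold changes of -0.21 and -0.29, and the test of disome against monosome change did not pass in either, at edgeR adjusted p = 0.130 and 0.325. The most abundant locus, of 463 codons, had 4959 CPM at 1 µM, against 4727 and 4721 CPM with DMSO, with a log2 fold change of 0.07 (SE 0.09). A locus of 642 codons had 2598 CPM at 1 µM, against 3140 and 2772 CPM; its log2 fold changes were -0.19 at 1 µM (SE 0.11) and -2.03 at 10 µM against the same DMSO libraries.

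Calls ran from rises on short coding regions to falls on long ones. Among loci under 100 codons 25 of 148 rose (16.9%) and 3 fell. From 100 to under 200 codons 99 of 755 rose (13.1%) and 6 fell, and from 200 to under 300 codons 96 of 666 rose (14.4%) and 2 fell. These shares of rises compare with 6.15% over all loci. Over all merged rows, which were not chosen by abundance, the shares in the same classes were lower. They were 10.7%, 8.73% and 7.59%, against 5.39% of all rows. The share was 5.54% from 300 to under 500 codons, with 71 of 1282 higher and 16 lower. From 500 to under 1000 codons, 30 of 1631 rose and 30 fell. At 1000 codons or more, 2 of 770 rose and 54 fell (7.01%), against 2.11% of all loci that fell. Of 48 loci of 3000 codons or more 11 fell, while the 6 loci under 50 codons held 1 rise and 1 fall. Some of those 11 had far more disome than monosome footprints, and whether they share reads was not tested.

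The medians of whole classes moved by less than the called loci. Under 100 codons the median disome log2 fold change was 0.27. It was 0.22 and 0.23 in the classes that begin at 100 and 200 codons, 0.08 in the class from 300, -0.10 in the class from 500 and -0.31 in the longest class. Against DMSO 1 alone the shortest and longest classes had medians of 0.18 and -0.24, and against DMSO 2 alone 0.35 and -0.33. The DMSO libraries themselves differed by class, with DMSO 2 over DMSO 1 at -0.17 for the shortest loci and 0.09 for the longest. For the shortest loci this difference was nearly as large as the change against DMSO 1, and for the longest it was smaller than the change against either. Spearman's rho between coding length and disome log2 fold change was -0.368 across the 5252 loci, as a description, since loci share the same libraries.

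**Figure D2:**
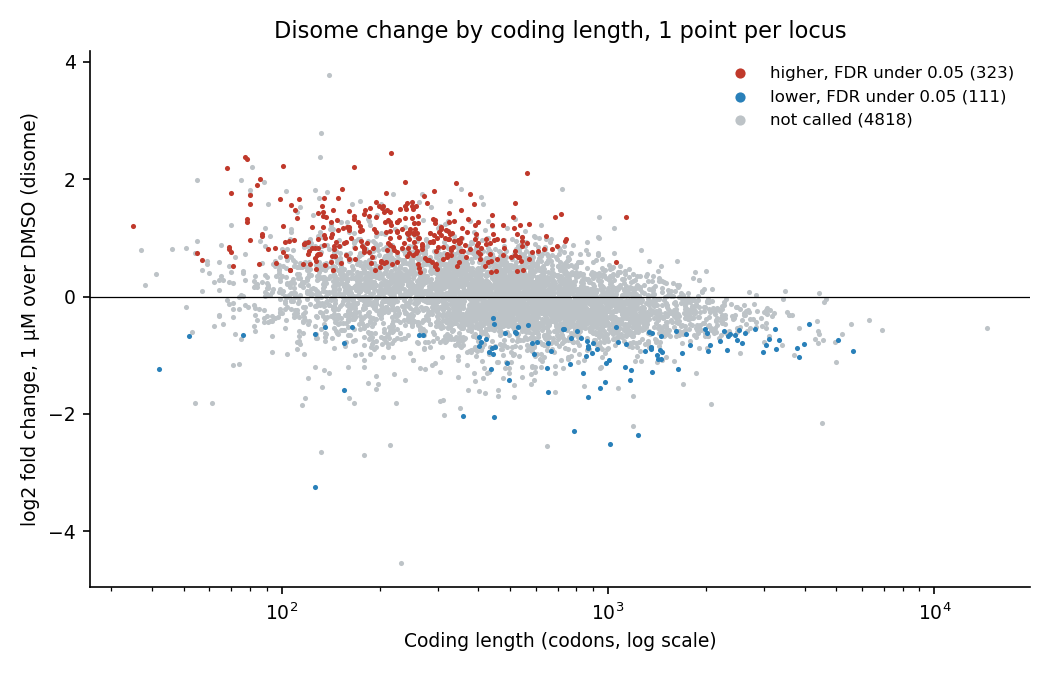
Disome log2 fold change, 1 µM over DMSO (vertical), against coding length in codons (horizontal, log scale), 1 point per locus. Red points rose (323), blue points fell (111) and grey points did not pass; most red points lie at the short end and most blue points at the long end.

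Monosome footprints and mRNA showed smaller medians across the same classes. In the longest class the monosome median was -0.11 and the mRNA median 0.04, beside -0.31 for disomes. In the shortest class they were 0.10 and -0.08, beside 0.27. From 100 to under 300 codons, where disome medians were 0.22 and 0.23, monosome medians were 0.02 and 0.03.

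**Figure D3:**
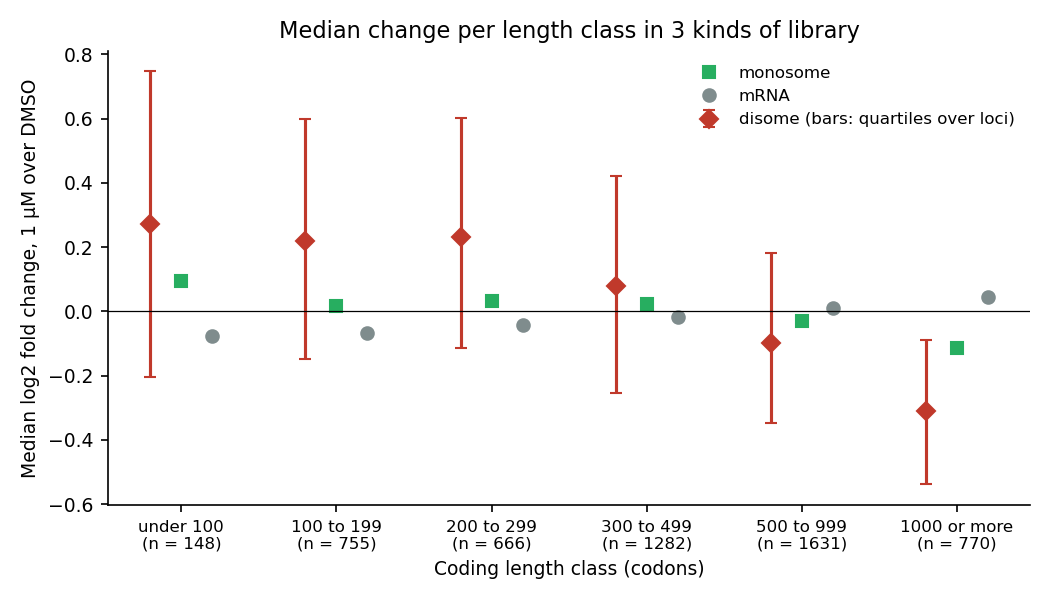
Median log2 fold change, 1 µM over DMSO, in 6 classes of coding length for disome, monosome and mRNA libraries, with the number of loci under each class. Bars on the disome points span the quartiles over loci; disome medians run from 0.27 in the shortest class to -0.31 in the longest, and those of monosomes from 0.10 to -0.11.

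The same shift was visible in raw counts, before any scaling. Coding regions of 100 to under 200 codons took 17.8% of the disome counts on loci at 1 µM, against 16% and 15.4% in DMSO 1 and DMSO 2. Those of 200 to under 300 codons took 16.3% at 1 µM, against 13.5% and 13.1%. Those of 500 to under 1000 codons took 27% at 1 µM, against 29.6% and 30.4%, and those of 1000 or more 10.5%, against 13.2% and 14.6%. In each of these classes the 1 µM share lay outside the DMSO pair. The 10 most abundant loci of each library took 10.3% at 1 µM, against 12.2% and 11.5% with DMSO, whereas the top 100 took 35.6%, against 35.7% and 34.7%.

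Loci also differed by how many disome footprints they carried relative to monosome footprints before girolline. This ratio, disome over monosome CPM with DMSO, was set after the data had been seen, and 5 equal groups of 625 loci were formed from it among the 3125 loci of at least 10 CPM, where 8.16% rose and 2.94% fell. In the lowest group, with ratios up to 0.659, 162 loci rose (25.9%) and 3 fell, and the median log2 fold change was 0.39. In the highest group, with ratios of 1.64 and more, 10 rose and 61 fell (9.76%), and the median was -0.29. The 10 CPM minimum again includes the 1 µM library, and monosome counts may omit coding ends that disome counts include. Over the 3095 loci with a DMSO mean of at least 10 CPM, of which 7.24% rose and 3.17% fell, 136 of 619 rose in the lowest group and 63 of 619 fell in the highest, with medians of 0.32 and -0.31. With the first minimum, the middle groups had medians of 0.13, -0.05 and -0.14 in order of ratio. Monosome medians were between -0.05 and 0.01 in all 5 groups and mRNA medians between -0.05 and -0.01, so neither followed the disome medians.

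DMSO disome counts enter both the ratio and the fold change, which can by itself produce such a slope. The ratio was therefore also taken from DMSO 1 and the change from 1 µM over DMSO 2. The lowest and highest groups then had medians of 0.34 and -0.23, and with the DMSO libraries swapped 0.34 and -0.26. Spearman's rho across loci was -0.519 with both DMSO pairs, and -0.420 and -0.433 with the libraries kept apart.

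The ratio and coding length were themselves related, with a Spearman's rho of 0.267 across these loci, so they were set side by side. Within every length class the median disome change was highest in the lowest tercile of the ratio and lowest in the highest tercile. Here the ratio used both DMSO pairs, so the shared DMSO disome counts can by themselves produce this order. The DMSO libraries were not kept apart within classes, and the 10 CPM minimum includes the 1 µM library. Of all 3125 loci 8.16% rose and 2.94% fell. From 200 to under 300 codons 61 of 163 loci rose in the lowest tercile, 9 of 97 in the middle and 2 of 87 in the highest, with medians of 0.46, 0.09 and 0.01. At 1000 codons or more, 1 of 106 loci fell in the lowest tercile, 5 of 208 in the middle and 42 of 255 in the highest, with medians of -0.10, -0.28 and -0.45. Under 100 codons, the medians were 0.45, 0.24 and -0.17 over 36, 17 and 23 loci. Within the lowest tercile, medians still ran from 0.45 under 100 codons to -0.10 at 1000 or more.

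**Figure D4:**
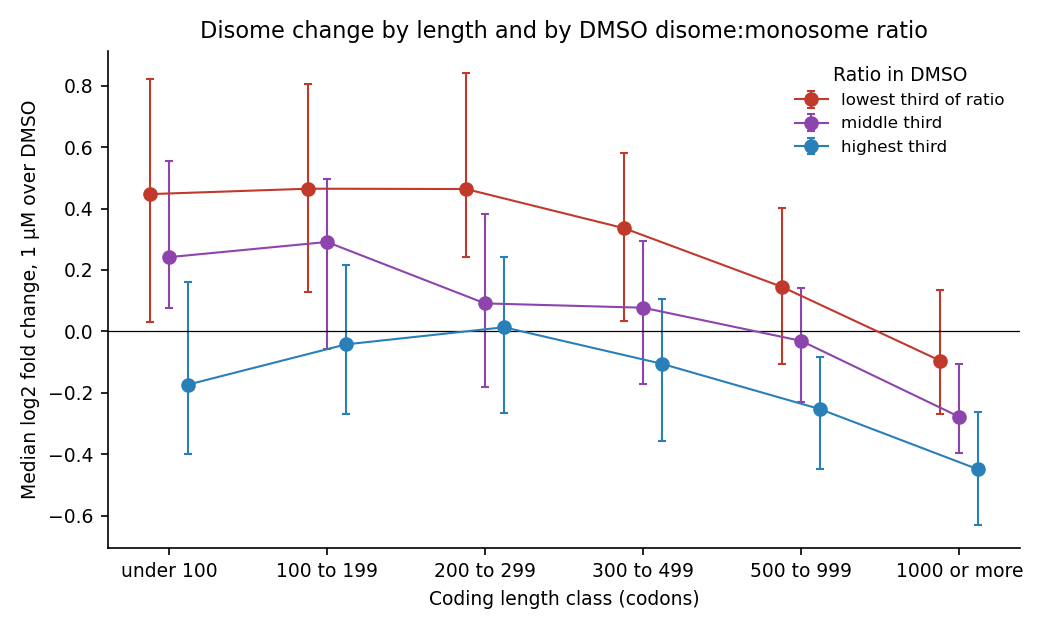
Median disome log2 fold change, 1 µM over DMSO (vertical), by coding length class (horizontal) in terciles of the disome:monosome ratio with DMSO, for loci of at least 10 CPM. Bars span the quartiles over loci. In each class the lowest tercile lies above the middle one and the middle one above the highest. The ratio and the change share the DMSO disome counts, which can by itself produce this order.

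Setting disome change against monosome change in one fit, a comparison added after the data had been seen, gave 221 loci (4.21%) that rose relative to monosomes and 45 (0.857%) that fell, of 5252. Of the 323 loci whose disome footprints rose, 196 also rose relative to monosomes and 127 did not pass. Of the 111 that fell, 30 also fell relative to monosomes and 81 did not pass. The disome counts enter both tests, so one is no separate evidence for the other. The joint fit took a single spread per locus over both kinds of library, which can understate the error of the difference. The SE of the difference was 0.21 at uc002fgy.3, beside 0.23 for disomes alone. At uc060tol.1 it was 0.37, beside 0.34. The counts also depended on which libraries supplied the spread. Without a disome DMSO library the spread came from the monosome DMSO pair alone, and more loci were called. Without a monosome DMSO library it came from the disome DMSO pair alone, and fewer were called. These fits therefore give no like-for-like check of the 221 and 45.

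Monosome footprints alone were called on few of these loci. Monosomes rose on 45 of the 323 loci with raised disome counts and fell on 2, where 1.81% of all loci rose and 1.49% fell. Of 110 with lowered disome footprints and a monosome test, 14 fell and 1 rose. The median monosome change was 0.09 (log2) for the loci with raised disome footprints and -0.12 for those with lowered ones, against -0.01 over all loci. For mRNA these medians were -0.06 and 0.0016. Relative to mRNA, 130 of the 323 rose and 27 of the 111 fell in the same kind of joint fit, where 2.51% and 0.514% of all loci were called.

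**Figure D5:**
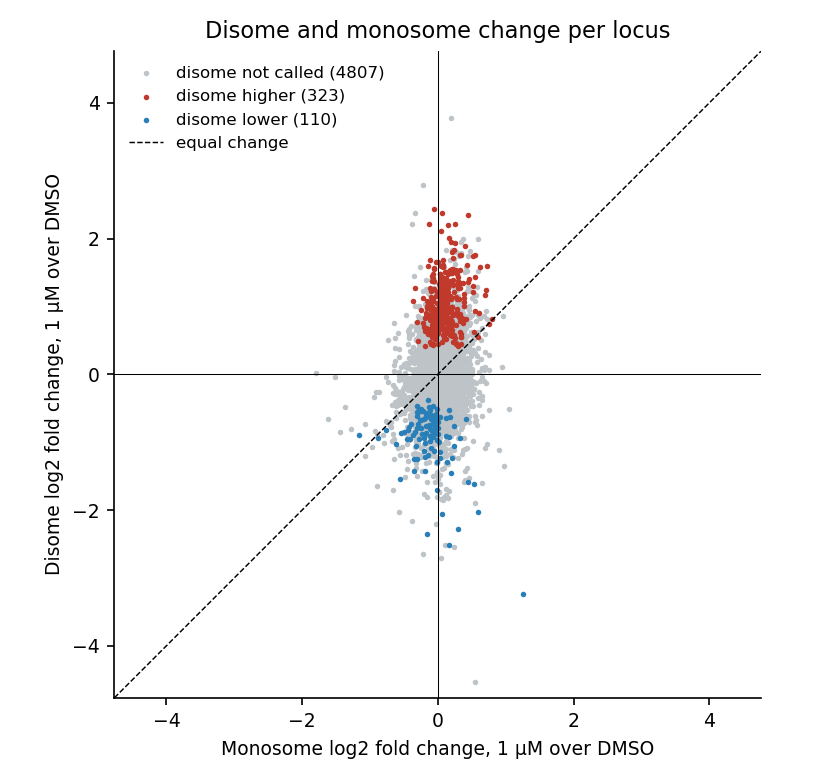
Disome log2 fold change (vertical) against monosome log2 fold change (horizontal), both 1 µM over DMSO, 1 point per locus with both tests. Red points are loci with raised and blue points with lowered disome footprints. The dashed line marks equal change, and the cloud is taller than it is wide. At 1 µM the disome library had 4704075 counts and the monosome library 21570489. Noise from fewer counts was not separated from larger change.

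Some loci went against their length class, and those named here were chosen after their values had been seen. Of the 2 loci of 1000 codons or more that rose, one of 1132 codons had 49 disome counts at 1 µM, against 10 and 25 with DMSO, with a log2 fold change of 1.37 (SE 0.35). The other, of 1057 codons, had 411 at 1 µM, against 166 and 345, with a log2 fold change of 0.59 (SE 0.20). The first lost its call without DMSO 1 and the second without either DMSO library. Among short loci, one of 52 codons had 579 disome CPM at 1 µM, against 906 and 930 CPM with DMSO, or -0.67 on the log2 scale (SE 0.13, edgeR adjusted p = 6.18e-05). Its monosome footprints rose over the same interval, to 359 CPM at 1 µM against 291 and 248 CPM, with a log2 fold change of 0.41 and edgeR adjusted p = 3.68e-07. Relative to monosomes its disome footprints fell by 1.08 on the log2 scale, with adjusted p = 3.21e-06 by edgeR. A locus of 76 codons had 120 disome CPM at 1 µM, against 174 and 203 CPM, and lost its call without DMSO 2 at edgeR adjusted p = 0.138. Both had more disome than monosome CPM with DMSO, at ratios of 3.40 and 3.23. Over all 11 loci under 300 codons that fell, the ratio ran from 0.072 to 4.40 and was above 1 in 7 and below 1 in 4.

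A small set of loci held far more disome than monosome footprints. The 20 highest ratios with DMSO, over loci of at least 10 CPM, ran from 10.4 to 455. At 1 µM 9 of these 20 fell and 2 rose, where 2.94% and 8.16% of loci at this level did, and their median log2 fold change was -0.66. They were picked on a ratio whose DMSO disome counts also enter the fold change, so this is a description. Some of these loci may also count the same reads. A locus of 251 codons had 88, 174 and 102 disome counts in DMSO 1, DMSO 2 and 1 µM. Another of that length had 92, 175 and 102. The 9 falls may thus not be separate, which was not tested. The highest, of 5647 codons, had 500 disome CPM at 1 µM, against 837 and 1054 CPM with DMSO, but 1.48 monosome CPM, against 1.70 and 1.46 CPM. Whether the disome and monosome tables treat reads from near-identical gene copies alike is not given in the sources used here, and the part of this in these loci was not tested.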

How the data were processed

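Footprints were obtained with RNase I from pelleted ribosomes, selected by size and depleted of rRNA, per the labels' protocols. The authors deposited raw read counts per transcript, without normalization, and a length column. The submitters' processing notes name STAR 2.7.0a, CASAVA 1.8 and build hg38, with no role for either tool; the counting tool and the treatment of multiply mapped reads are not given in the sources used here. The length column was taken as codons from its values, 10 lower in monosome and 20 lower in RNA-seq tables, so those tables may omit coding ends. Reads seem to be counted in every isoform.

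Rows were joined between tables by runs of equal coding length in file order. The test was that of edgeR 4.0.16, run in R 4.3.3 (TMM, filterByExpr, quasi-likelihood test, Benjamini-Hochberg over all rows, FDR 0.05), on all disome libraries in 3 groups. CPM are scaled by TMM, and single-library log2 ratios add 0.5 CPM. The standard error is the log2 fold change divided by the root of the F statistic. The code was checked on simulated counts. P-values measure the spread between libraries, which may be technical. DESeq2 1.42.0, other scaling and filters, and leaving out libraries were alternatives. Loci described are, among those of at least 10 CPM called and outside the DMSO pair, the 15 highest and 10 lowest log2 fold changes, and the 10 most abundant with DMSO. At most 2 IDs per direction are printed. Loci and classes were chosen with earlier results of these data known. Gene lists, markers and protein features, which had been planned, were not analysed here because the IDs could not be paired with names.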

Additional observations from a re-analysis of the deposited data

How the results depend on the processing

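No paired analysis was possible because DMSO and 1 µM share fewer than 2 replicate numbers. DESeq2 called 269 rows higher and 10 lower in place of 1866 and 582, and 55 and 5 loci in place of 323 and 111; it gave an adjusted p for only 7098 rows. A fit with 1 row per locus gave 329 and 111 among 5252. Leaving out 1 disome DMSO library, in a joint fit with RNA-seq libraries in which the lone libraries are assumed to vary like the pairs left, gave 838 to 1092 rows higher and 197 to 485 lower, and 156 to 196 loci higher and 42 to 89 lower; that joint fit with none left out gave 263 and 115 loci. Rises made up 74.4% of called loci, 91.7% with DESeq2 and 68.8% to 78.8% without a DMSO library. Relative to monosomes, 64 to 326 loci were higher and 3 to 165 lower without 1 library, in place of 221 and 45. DESeq2 size factors, other filters, unmerged rows and a fit without the 10 µM library moved no count of calls in disomes by over 1.5 times.

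Over all merged rows in place of loci, class medians were 0.15, 0.13 and -0.13 in the classes that begin at 100, 200 and 500 codons. Without 1 disome DMSO library they ran from 0.13 to 0.26 in the class from 200 codons, 0.0223 to 0.0917 in that from 300, -0.14 to -0.11 in that from 500 and -0.38 to -0.28 in the longest. In the lowest ratio group the median was 0.34 with the ratio from either DMSO library and the change against the other, 0.47 over all tested loci and 0.32 with the 10 CPM minimum on DMSO libraries alone; in the highest it was -0.23 and -0.26. The cause was not tested. Of 303 values for the loci described, under the alternatives planned, 284 kept their direction and their side of the threshold, and 16 kept their direction but not their call. The other 3, all of abundant loci that were not called, changed sign. Without 1 DMSO library their log2 fold changes ran from -0.268 to 0.0679 at the locus of 859 codons, -0.0218 to 0.118 at that of 336 and -0.419 to 0.0602 at that of 376. Protein features could not be run. DESeq2 gave an adjusted p for 13 of the 15 rises described and called 12, but for only 1 of the 10 falls. At this depth 352 loci had too few counts to be tested.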
